A study of Rattus norvegicus with 18 samples.

Results

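The arrays compared here measured retinal RNA of rats that had eaten saffron and met no damaging light, against that of rats given neither saffron nor bright light. They are the 3 arrays titled Saffron and the 3 titled Control, 6 of the 18 Affymetrix rat ST arrays (whole-transcript probe sets) of the series. All animals were adult Sprague Dawley rats, an albino strain, aged P80 to P120, reared in cyclic light of 5 lux and routinely given a vegetable matrix to eat. In the saffron group this matrix carried saffron at 1 mg/kg a day for 3 weeks, and the retina was taken a day after the last feed; the control group had no pretreatment. The other groups, used here only for context, were PBM (red light at the eye for 3 min a day on 5 days), SafLD and PBMLD (the same pretreatments followed by 24 h of bright light) and LD (24 h of bright light alone), and the labels name no altered genotype. Each array was 1 retina of a separate rat; the study's methods describe groups of both sexes, and the labels give no sex for an array.

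Saffron is the dried stigma of a crocus, and its carotenoids, crocin and crocetin, are antioxidants that have been studied as protectants of photoreceptors. In the retina, photoreceptors pass their signal by ribbon synapses to bipolar cells, amacrine and horizontal cells shape it with GABA and glycine, and ganglion cells carry it to the brain. Crystallins are the packed proteins of lens fibre cells. The lens lies close to the retina in the small rat eye, and neurons and Müller cells of the retina also make some crystallins.

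No probe set of 29214 differed between saffron and control at an adjusted p below 0.05 (limma over all 18 arrays, Benjamini-Hochberg adjustment, two-sided; percent called 0%), with or without the further limit of a 2-fold difference. Without adjustment, 1343 probe sets (4.60%) had a limma p below 0.05, 750 higher (2.57%) and 593 lower (2.03%) in saffron. If no probe set differed, about 1461 would be expected at this limit. The number observed was 866 without saffron 2 or without control 1 and 2399 with array weights. Limma called 1 probe set with the compared groups alone (10886988) and 1 with the lens level of each array as a covariate (Chst3). The smallest adjusted p was 0.397. The t-test of the study's methods, at p below 0.05 and more than 2-fold, called 26 probe sets (0.0890%), 21 higher (0.0719%) and 5 lower (0.0171%), and none after adjustment. The study itself reports a shorter list for saffron without light damage, from values summarised in other software. The values are log2 intensities, so that a difference of 1 is a doubling. The median 95% interval of a difference was 0.35 to either side, and differences are given below as log2 saffron minus control ± SE with 3 arrays a group. No gene below therefore passed the test across all probe sets, and "higher" and "lower" describe measured levels. Groups of 3 arrays are called not overlapping where all of one lie above all of the other; 10.0% of probe sets did so.

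**Figure D1:**
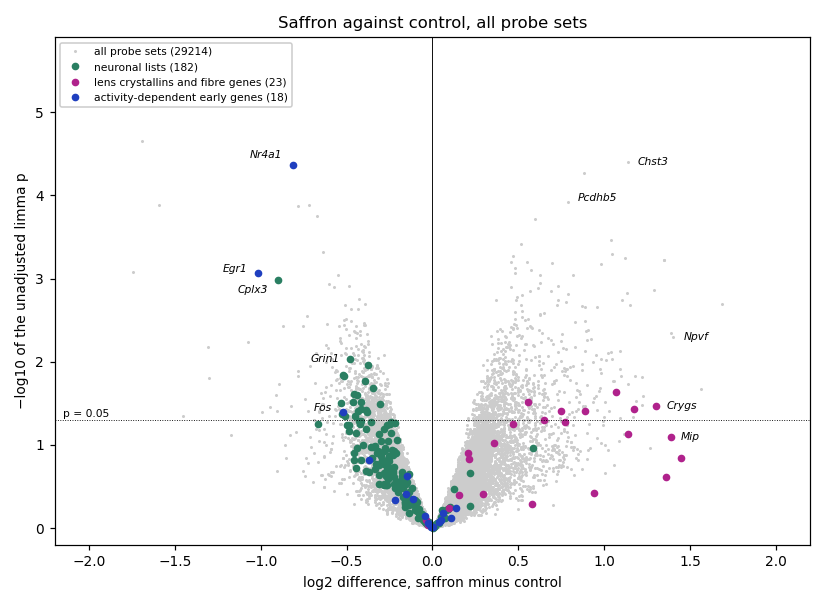
Log2 difference, saffron minus control (horizontal), against −log10 of the unadjusted limma p (vertical) for all 29214 probe sets, with the neuronal lists, the lens crystallin and fibre genes and the activity-dependent early genes in colour. Most neuronal genes lie left of 0 and most lens genes right of it; probe set 10886988, at 4.91, lies beyond the axis.

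Lens genes read higher in saffron retinas than in control retinas. Of 23 measured genes for crystallins and lens fibre proteins, 21 were higher in saffron, with a median difference of 0.65, against -0.02 over all 14506 genes. The 3 saffron arrays lay above all 3 control arrays in 15 of the 23 and below them in none; over all genes 3.79% were not overlapping and higher, and 6.69% not overlapping and lower. The mean log2 level of the 23 genes was 9.98, 9.43 and 9.30 in saffron retinas, against 8.86, 8.68 and 9.11 in control retinas. In 7 of the 23 the unadjusted limma p was below 0.05 (1.29% of all genes in this direction) and in none the adjusted p. In whole retina a lower or higher share of a cell type and less or more RNA per cell cannot be told apart.

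All 8 alpha and beta crystallins were higher, and none of their groups overlapped. Cryaa, the small heat shock protein that keeps lens proteins in solution, stood at 13.64, 13.62 and 13.68 in saffron retinas, against 13.33, 13.47 and 13.51 in control retinas, a difference of 0.21 ± 0.13. Its partner Cryab, which is also made by glia, differed by 0.21 ± 0.14. These are among the brightest signals of the array and their differences were small. The beta crystallins, structural proteins of the fibre cell, differed more. Cryba4 read 12.52, 12.32 and 11.76 in saffron retinas, against 10.77, 10.75 and 11.56 in control retinas (1.17 ± 0.52, 2.25-fold, 95% interval 0.08 to 2.27). Crybb1 read 12.70, 12.25 and 12.23 in saffron retinas, against 11.42, 11.37 and 11.72 in control retinas (0.89 ± 0.40). In both genes control 3 was the highest control array. Cryba1, Cryba2, Crybb2 and Crybb3 differed by 0.56, 0.65, 0.47 and 0.75.

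Among the gamma crystallins, 6 of 8 were measured and 5 were higher (median 0.68). Crygs, the gamma crystallin of the lens cortex, read 12.56, 12.20 and 11.72 in saffron retinas, against 10.70, 10.63 and 11.24 in control retinas (1.30 ± 0.57, 2.47-fold). Crygn, which is expressed in retinal neurons as well as in lens, read 8.20, 8.34 and 8.32 in saffron retinas, against 7.57, 7.36 and 7.63 in control retinas (0.77 ± 0.37). The 3 saffron arrays of Crygn lay close together, unlike those of the fibre genes below. Cryga and Crygd overlapped between groups and their saffron arrays were far apart: Crygd read 7.57, 5.85 and 5.14 in saffron retinas, against 4.61, 3.97 and 5.89 in control retinas. The gamma crystallins of the gene cluster are near-identical in sequence, so signal may be shared among their probe sets.

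Of 12 genes for lens fibre membrane and cytoskeleton 9 were measured and 8 were higher (median 0.94). The groups did not overlap in 5, all higher (55.6%, against 3.79% of all genes). Mip, the water channel of the fibre membrane, read 10.74, 9.51 and 9.47 in saffron retinas, against 8.61, 8.40 and 8.56 in control retinas (1.39 ± 0.74). Lim2, a fibre junction protein, read 9.03, 8.44 and 8.30 in saffron retinas, against 7.48, 7.22 and 7.65 in control retinas (1.14 ± 0.60). Both were highest in saffron 1. Bfsp1, the beaded filament protein filensin, read 9.14, 6.96 and 6.68 in saffron retinas, against 6.10, 5.74 and 6.60 in control retinas (1.45 ± 0.94), so that most of its difference lay in saffron 1; without that array the median of the fibre list was 0.27. Cd24, a surface glycoprotein of lens and of developing neurons, was more even, at 10.42, 10.07 and 9.97 in saffron retinas, against 9.20, 8.89 and 9.16 in control retinas (1.07 ± 0.43, 2.1-fold). Grifin, a lens galectin, differed by 1.03 ± 0.46, with 11.53, 11.17 and 10.98 in saffron retinas, against 10.12, 9.93 and 10.55 in control retinas.

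Transcription factors of the lens had no common direction. Of 7 measured, 3 were higher and 4 lower, with a median of -0.05. Maf, which switches on crystallin genes, differed by 0.44 ± 0.26 with overlapping groups, and Pitx3 by 0.32 ± 0.15. Prox1 and Pax6, which retinal neurons express as well, differed by -0.17 and -0.06. Hsf4, the heat shock factor of lens fibres, differed by -0.05.

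**Figure D2:**
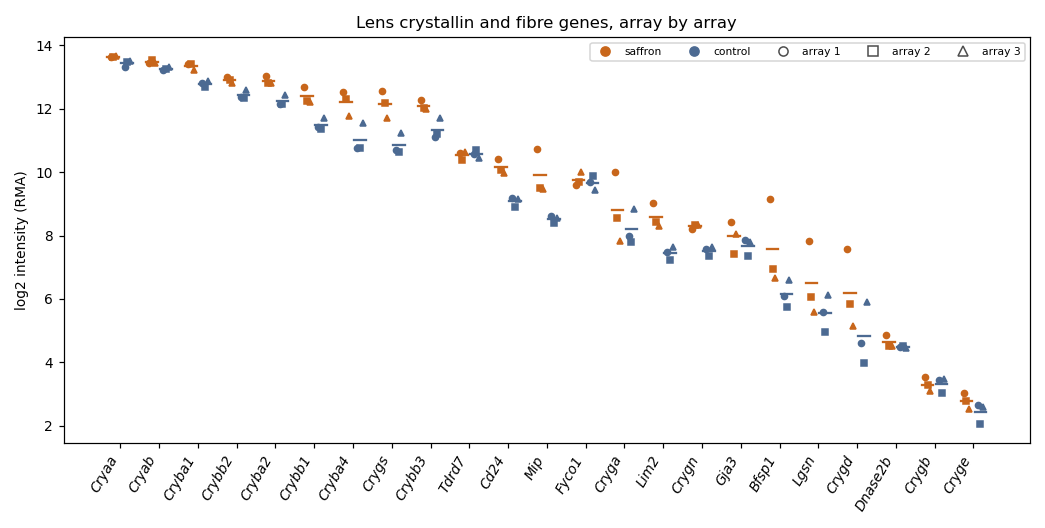
Log2 intensity of each lens crystallin and fibre gene in the 3 saffron arrays (orange, left) and the 3 control arrays (blue, right); bars are group means and symbols give the array number. In 15 of the 23 genes all saffron arrays lie above all control arrays, and saffron 1 stands highest in Mip, Bfsp1, Lgsn and Crygd.

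Lens gene levels also varied within the other groups. The same 23 genes averaged 8.93 ± 0.36 in SafLD retinas and 9.93 ± 1.11 in LD retinas (SD), with LD arrays at 10.60, 8.65 and 10.55, and 8.83 ± 0.19 in PBM retinas. SafLD was lower than LD in all 23 (median -0.64), while saffron was higher than control in 21. Crygs differed by -1.62 between SafLD and LD and by 1.30 between saffron and control. The difference between these differences did not pass the test for any named lens gene. The sign of the saffron difference in lens genes was thus opposite in the unlit and the lit pair of groups.

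The promoters of the 3 crystallin genes that differed most among those with an unadjusted p below 0.05 are shown because large Maf proteins act on crystallin promoters through elements with the core TGCTGA. The windows span 250 bases before to 50 bases after the transcript start (RefSeq, GRCr8), 5′ to 3′ on the gene's strand, and capitals mark TGCTGA on either strand. Cryba4 (chr12:50046799-50047098, plus strand) and Crybb1 (chr12:50043707-50044006, minus strand) are divergent neighbours, with 2792 bases between their windows, and Crygs lies at chr11:91711505-91711804, plus strand. TGCTGA occurred in 18.4% of all 33469 windows, and in 5 of the 7 alpha and beta crystallin genes and 3 of the 8 gamma crystallin genes with a window. It was found 2 times in Cryba4 and 1 time each in Crybb1 and Crygs. Such a match is a description of the letters and not a binding site.
Cryba4: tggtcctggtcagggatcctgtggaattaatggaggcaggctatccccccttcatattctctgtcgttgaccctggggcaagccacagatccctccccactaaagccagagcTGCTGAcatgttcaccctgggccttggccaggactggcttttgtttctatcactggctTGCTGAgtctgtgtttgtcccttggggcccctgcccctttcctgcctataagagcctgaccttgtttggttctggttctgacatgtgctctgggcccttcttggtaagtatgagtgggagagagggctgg
Crybb1: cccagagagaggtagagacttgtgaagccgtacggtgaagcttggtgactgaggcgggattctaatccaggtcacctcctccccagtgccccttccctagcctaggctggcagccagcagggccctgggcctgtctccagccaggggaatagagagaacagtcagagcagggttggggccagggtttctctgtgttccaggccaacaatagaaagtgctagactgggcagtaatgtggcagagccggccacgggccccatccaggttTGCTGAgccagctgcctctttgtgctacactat
Crygs: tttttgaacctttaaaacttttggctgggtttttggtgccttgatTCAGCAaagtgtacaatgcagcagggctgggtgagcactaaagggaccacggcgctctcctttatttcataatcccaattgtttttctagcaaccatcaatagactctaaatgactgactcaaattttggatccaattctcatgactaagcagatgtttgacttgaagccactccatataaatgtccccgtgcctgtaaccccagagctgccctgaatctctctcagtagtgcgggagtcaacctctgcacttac

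Genes of inner retinal neurons were lower in saffron retinas. The 8 lists for bipolar, amacrine and horizontal and ganglion cells, synapses, transmitter receptors, voltage-gated channels and neuropeptides held 182 measured genes, of which 164 (90.1%) were lower and 18 higher, with a median of -0.22. Over all genes 56.0% were lower (median -0.02), and over the 9160 genes with a mean log2 level over 6, 62.9% were lower (median -0.05). Saffron arrays lay below all control arrays in 30 of the 182 (16.5%) and above them in none. The share below was 6.69% of all genes and 8.69% of the 9160. An unadjusted limma p below 0.05 was reached by 20 of the 182 (11.0%), all lower, and an adjusted one by none. The unadjusted share in this direction was 2.66% of all genes and 3.47% of the 9160. The mean level of the 182 genes was 7.94, 7.79 and 7.82 in saffron retinas, against 8.12, 8.14 and 7.91 in control retinas. Control 3 lay below saffron 1, so the groups overlapped in this mean. Control 3 was the control array with the highest lens level and the lowest neuronal level, whereas saffron 1 was highest of the saffron arrays in both. With the lens level of each array as a covariate in the fit, the neuronal median was -0.15.

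Synaptic genes held the largest member. Cplx3, a complexin of retinal ribbon synapses, which regulates vesicle fusion, read 10.21, 9.71 and 10.15 in saffron retinas, against 10.64, 11.04 and 11.09 in control retinas (-0.90 ± 0.23, 1.87-fold lower in saffron). Every saffron array lay below every control array. Of 27 synaptic vesicle and release genes 23 were lower, 5 of them without overlap (18.5%, against 6.69% of all genes). The median of the list was -0.22, which was -0.33 without control 3 and -0.11 without saffron 2. Syt2, a calcium sensor of fast release, read 7.20, 6.46 and 6.63 in saffron retinas, against 7.40, 7.23 and 7.21 in control retinas (-0.52 ± 0.19). Sv2a, a vesicle glycoprotein, read 9.66, 9.03 and 9.32 in saffron retinas, against 9.83, 9.92 and 9.80 in control retinas (-0.51 ± 0.24). Saffron 2 was the lowest array in Cplx3, Syt2 and Sv2a. The complexins of conventional synapses, Cplx1 and Cplx2, differed by -0.45 and -0.46, with overlap, and the vesicle protein Syp by -0.25 ± 0.16 without it.

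Amacrine and horizontal cell genes were lower in 19 of 20 (median -0.32). Gad2, which makes GABA, read 7.88, 7.72 and 7.98 in saffron retinas, against 8.56, 8.64 and 7.95 in control retinas (-0.53 ± 0.24); control 3 fell between the saffron arrays. Slc32a1, which loads GABA and glycine into vesicles, read 8.30, 7.63 and 8.08 in saffron retinas, against 8.50, 8.48 and 8.53 in control retinas (-0.50 ± 0.24), without overlap. Lhx1, a transcription factor of horizontal cells, differed by -0.53 ± 0.23, its highest saffron and lowest control arrays almost touching. Slc5a7, the choline transporter of starburst amacrine cells, differed by -0.44 ± 0.23. Neither of these overlapped between groups.

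Ganglion cell genes were lower in 20 of 21 (median -0.33, which was -0.48 without saffron 1 and -0.22 without saffron 3). Thy1, the surface protein by which ganglion cells are known, read 10.88, 10.11 and 10.28 in saffron retinas, against 10.98, 10.80 and 10.78 in control retinas (-0.43 ± 0.19), with saffron 1 among the control arrays. Pou4f3, a transcription factor of ganglion cell subsets, read 5.72, 5.49 and 5.28 in saffron retinas, against 6.08, 5.93 and 5.73 in control retinas (-0.42 ± 0.18). The neurofilament Nefm differed by -0.45 ± 0.33 and the RNA-binding protein Rbpms2 by -0.46 ± 0.29, both with overlap. All 12 measured bipolar cell genes were lower (median -0.15, which was -0.23 without saffron 2 and -0.075 without saffron 1), among them Nyx, the ON bipolar protein nyctalopin, at 7.51, 7.65 and 7.79 in saffron retinas, against 7.87, 8.28 and 7.99 in control retinas (-0.40 ± 0.15).

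Receptor and channel genes were lower by similar amounts. Grin1, the obligatory NMDA receptor subunit, read 8.57, 8.01 and 8.13 in saffron retinas, against 8.74, 8.75 and 8.67 in control retinas (-0.48 ± 0.16), and 19 of 21 glutamate receptor genes were lower (median -0.14). Chrna4, a nicotinic receptor subunit, read 7.03, 6.50 and 6.86 in saffron retinas, against 7.31, 7.55 and 7.08 in control retinas (-0.51 ± 0.19), and its partner Chrnb2 differed by -0.46 ± 0.20. Of the 25 GABA, glycine and acetylcholine receptor genes 22 were lower (median -0.24). Hcn2, a pacemaker channel, read 8.37, 8.11 and 8.15 in saffron retinas, against 8.59, 8.67 and 8.49 in control retinas (-0.38 ± 0.13), and 27 of 29 voltage-gated channel genes were lower (median -0.23, and -0.14 without control 1). Htr2c, a serotonin receptor, read 7.42, 7.85 and 7.48 in saffron retinas, against 8.37, 8.31 and 8.07 in control retinas (-0.67 ± 0.33). The dopamine receptor Drd1 differed by -0.34 ± 0.14, without overlap. Neuropeptide and modulator genes were lower in 22 of 27 (median -0.14, and -0.067 without saffron 3).

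**Figure D3:**
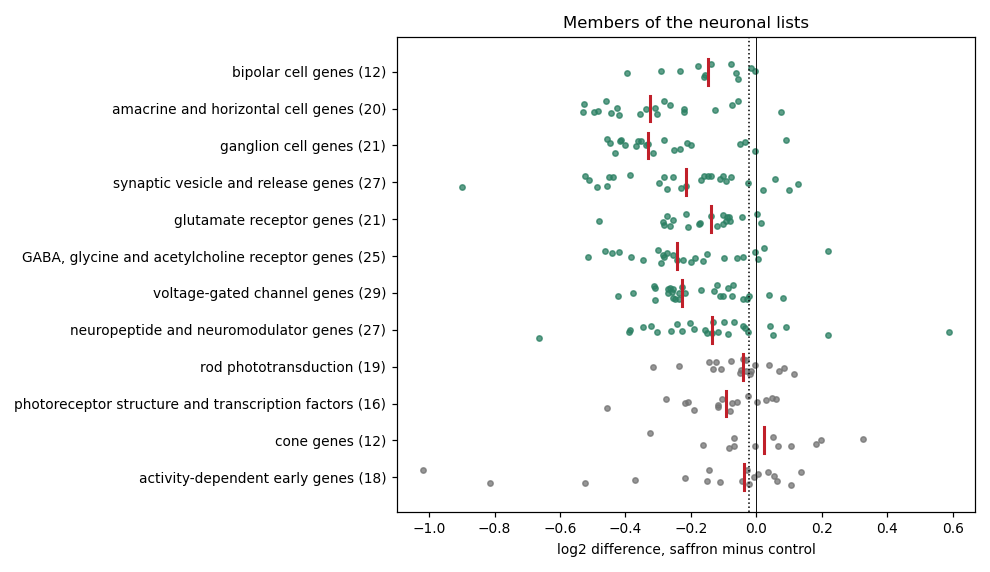
Log2 difference, saffron minus control, of every measured member of each neuronal list (points, with the number of genes in brackets) and the median of the list (red bar). The dotted line is the median of all genes, -0.02, and the 8 inner retinal and synaptic lists have medians from -0.33 to -0.14; photoreceptor lists lie closer to 0.

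Photoreceptor genes differed little as a set. Gnat1, the rod transducin, read 13.78, 13.68 and 13.78 in saffron retinas, against 13.74, 13.81 and 13.78 in control retinas, so that the labelled tissue was plain in every array. Over 47 genes of rods and cones the median was -0.05, and 1 (2.1%) in each direction did not overlap. Lower were 33 (70.2%), against 56.0% of all genes and 62.9% of those with a mean log2 level over 6. By list, 15 of 19 rod phototransduction genes were lower (median -0.04) and 12 of 16 photoreceptor structure and transcription factor genes (median -0.09). Of 12 cone genes 6 were lower (median 0.02). Over all genes 3.79% were higher and 6.69% lower without overlap. The mean level was 10.95, 10.89 and 11.01 in saffron retinas, against 10.99, 11.09 and 10.94 in control retinas. The genes without overlap were Guca1b, an activator of photoreceptor guanylate cyclase (-0.14 ± 0.15), and Pde6c, the cone phosphodiesterase (0.20 ± 0.13). Larger differences were seen in genes that overlapped, among them Esrrb (-0.46), Gnb3 (-0.32), Rgs9bp (-0.32) and Arr3 (0.32). No gene of these lists had an unadjusted limma p below 0.05. The difference between the photoreceptor and the inner retinal lists was not tested. In the pair of groups exposed to bright light the 182 inner retinal genes were 87 higher and 95 lower in SafLD than in LD (median -0.01).

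Activity-dependent early genes are switched on within minutes by synaptic input, calcium and growth factors. Of 18 measured, 12 were lower and 4 did not overlap, all lower (22.2%, against 6.69% of all genes), while the median was -0.04. Egr1, a zinc finger transcription factor, read 6.73, 6.44 and 6.72 in saffron retinas, against 7.95, 7.67 and 7.32 in control retinas (-1.02 ± 0.25, 2.02-fold lower in saffron, 95% interval -1.55 to -0.48). Nr4a1, an orphan nuclear receptor, read 7.02, 6.88 and 7.23 in saffron retinas, against 7.95, 7.94 and 7.67 in control retinas (-0.81 ± 0.15, 1.76-fold lower in saffron), with an unadjusted limma p of 4.36e-05 and an adjusted p of 0.397. Fos, a subunit of AP-1, read 6.34, 6.19 and 6.43 in saffron retinas, against 7.01, 6.63 and 6.90 in control retinas (-0.52 ± 0.24). The MAP kinase phosphatase Dusp6 differed by -0.15 ± 0.17. In these 4 genes every saffron array lay below every control array, and the other members ran from -0.37 (Nr4a2) to 0.14 (Egr2).

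The promoters of Egr1 and Nr4a1, the early genes with the largest differences, are shown with the elements through which such genes are commonly induced. Capitals mark TGACG, the core of the cAMP response element, on either strand and, in Egr1, the CArG box bound by serum response factor. The windows are of the same length and source as above, Egr1 at chr18:26736828-26737127, plus strand and Nr4a1 at chr7:134259888-134260187, plus strand. Nr4a1 held 4 such cores and no CArG box, and Egr1 held 2 of each. TGACG occurred in 21.2% of all windows and the CArG box in 1.64%, and of 15 early genes with a window 10 held TGACG and 2 the CArG box.
Egr1: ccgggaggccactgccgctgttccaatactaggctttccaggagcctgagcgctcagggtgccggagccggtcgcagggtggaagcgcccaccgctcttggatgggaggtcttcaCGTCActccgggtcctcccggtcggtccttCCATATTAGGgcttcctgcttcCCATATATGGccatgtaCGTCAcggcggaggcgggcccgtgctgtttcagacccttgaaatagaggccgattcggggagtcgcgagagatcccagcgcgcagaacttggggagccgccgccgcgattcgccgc
Nr4a1: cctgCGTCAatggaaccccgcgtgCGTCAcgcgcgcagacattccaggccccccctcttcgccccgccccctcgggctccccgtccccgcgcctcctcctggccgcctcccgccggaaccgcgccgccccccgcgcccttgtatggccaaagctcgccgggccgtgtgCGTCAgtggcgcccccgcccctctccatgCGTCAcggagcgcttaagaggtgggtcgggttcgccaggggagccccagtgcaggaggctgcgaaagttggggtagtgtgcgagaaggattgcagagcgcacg

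A direct test against the other unlit pretreatment, PBM, which shares no array with saffron or control, called 94 probe sets (0.322%, adjusted p below 0.05 and more than 2-fold), 93 higher in saffron and 1 lower. The single lower one was Egr1. It read 6.73, 6.44 and 6.72 in saffron retinas, against 7.64, 8.01 and 8.23 in PBM retinas (-1.33 ± 0.25, adjusted p = 0.0233 by limma). Nr4a1 differed from PBM by -0.72 ± 0.15 (adjusted p = 0.0409), short of 2-fold. Both were lower in saffron than in either unlit group. Npvf was higher in saffron by 2.17 ± 0.44 (adjusted p = 0.0335), and the other named calls were 6 probe sets of Rpl39, a ribosomal protein gene with many processed copies. The remaining 86 had no symbol. In all 93 higher probe sets PBM lay below control (median -1.16), and in 92 of them saffron lay above control (median 0.43). The distance of PBM from control was the larger in 84 of the 93, the Rpl39 ones included; for Npvf it was the smaller (-0.76, against 1.40 for saffron). Some of the 93 had identical values in every array, so that they held 65 distinct profiles. The number called was 37 without saffron 2, 44 without PBM 2, 46 without PBM 3 and 60 without saffron 1, and 0 when probe sets without a symbol were left out of the fit, Egr1 and Npvf included. These tests reuse the saffron arrays of the comparison with control, so the comparisons are not independent.

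In all, 135 of the 15310 probe sets with 1 gene symbol were higher and 285 lower with both an unadjusted p below 0.05 and no overlap. Among the 13581 with no symbol 342 were higher and 130 lower. Npvf, the precursor of RFamide-related peptides, led the higher ones at 7.49, 7.17 and 8.18 in saffron retinas, against 6.24, 5.94 and 6.46 in control retinas (1.40 ± 0.44, 2.64-fold). Chst3, a sulfotransferase that adds 6-O-sulphate to chondroitin, read 6.01, 6.58 and 6.48 in saffron retinas, against 5.33, 5.07 and 5.27 in control retinas (1.14 ± 0.21, 2.2-fold). Its unadjusted limma p was 3.94e-05 and its adjusted p 0.397. It was called at an adjusted p of 0.00489 with the lens level as a covariate. Chst3 differed from PBM by -0.70 ± 0.21 (adjusted p = 0.181), with 6.96, 7.01 and 7.21 in PBM retinas, so that the saffron retinas lay between PBM and control. Lgals3, galectin-3 of macrophages and activated glia, read 7.42, 7.74 and 7.75 in saffron retinas, against 6.61, 6.41 and 6.86 in control retinas (1.01 ± 0.35). Serpinf1, the neurotrophic and antiangiogenic factor PEDF, read 7.49, 7.36 and 7.68 in saffron retinas, against 6.62, 6.53 and 6.82 in control retinas (0.85 ± 0.34). R3hdml, Cyp2j4, an arachidonic acid epoxygenase, Pdia5, a protein disulphide isomerase, and Pln, the phospholamban of cardiac muscle, differed by 0.97, 0.93, 0.89 and 0.77.

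Among the lower genes, Btd, biotinidase, which recycles biotin, read 7.57, 7.02 and 7.44 in saffron retinas, against 8.32, 8.41 and 8.25 in control retinas (-0.98 ± 0.25). Car4, a membrane carbonic anhydrase of capillaries and Müller cells, read 5.27, 5.33 and 5.18 in saffron retinas, against 6.11, 5.93 and 6.09 in control retinas (-0.78 ± 0.16). Dnai3, an axonemal dynein chain, and Cep295, a centriole protein, differed by -0.72 ± 0.15 and -0.76 ± 0.22. Several of the others are neuronal: Brinp2 (-0.68), Tmem179 (-0.64), the adenylyl cyclase Adcy3 (-0.62), Prkar1b, a regulatory subunit of protein kinase A in neurons (-0.62), and Dpysl4, a collapsin response mediator (-0.61). Krt23, a keratin, and Btn3a2, a butyrophilin, were dim, at means of 3.53 and 3.31 in saffron retinas and 4.17 and 4.21 in control retinas. Csgalnact1, which starts chondroitin chains, differed by -0.59 ± 0.20.

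**Figure D4:**
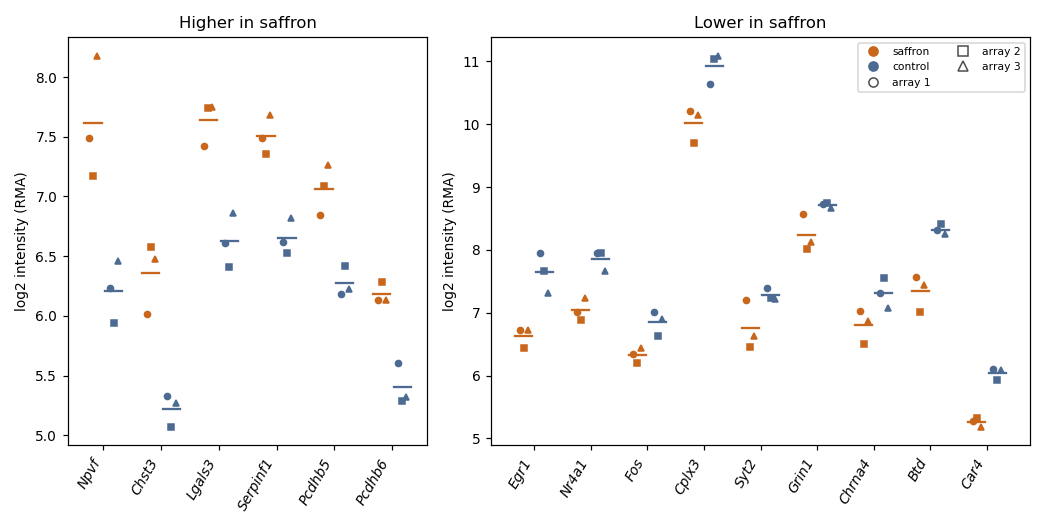
Log2 intensity of named genes higher (left panel) and lower (right panel) in saffron, for the 3 saffron arrays (orange, left of each pair) and the 3 control arrays (blue); bars are group means and symbols give the array number. The groups do not overlap in any of the 15 genes shown.

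The 25 measured genes of chondroitin sulphate synthesis and the perineuronal net divided. Beside Chst3, Acan, the core proteoglycan of the net, read 5.48, 5.53 and 5.26 in saffron retinas, against 4.94, 4.90 and 4.87 in control retinas (0.52 ± 0.15), and Vcan differed by 0.40 ± 0.39, neither with overlap. Csgalnact1, Ncan and Chpf were not overlapping and lower. Without overlap were thus 12% of the list in each direction, against 3.79% of all genes higher and 6.69% lower. The median of the list was -0.06, with 9 higher and 16 lower.

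Antioxidant genes showed no common direction. Of 32 measured, 14 were higher and 18 lower (median -0.03). Without overlap were 3 higher (9.4%) and 4 lower (12.5%), against 3.79% and 6.69% of all genes. Hmox2, the constitutive haem oxygenase, averaged 7.74 in saffron retinas and 8.03 in control retinas (-0.29 ± 0.12), and Hmox1, the inducible one, differed by 0.31 ± 0.38. Keap1, the inhibitor of the Nrf2 factor, differed by -0.27 ± 0.14 and Gss, glutathione synthetase, by 0.26 ± 0.21. Heat shock genes (17 measured) had a median of -0.04, and the 21 genes of retinoid and carotenoid handling one of -0.05; in the retinoid list Aldh1a1, which makes retinoic acid, differed by 0.53 ± 0.33, without overlap. Respiratory chain genes (31 measured) had a median of -0.05.

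Genes of inflammation and glial reaction were more often higher than lower. Of 25 chemokine and cytokine genes 18 were higher (median 0.15, but 0.020 without control 2) and 4 did not overlap, all higher (16%, against 3.79% of all genes). Cxcl2, a neutrophil chemokine, read 4.07, 4.54 and 3.79 in saffron retinas, against 3.27, 3.58 and 3.61 in control retinas (0.65 ± 0.18), a low level throughout. Tgfb1 differed by 0.42 ± 0.26. Cx3cl1, the neuronal chemokine that microglia sense, differed by -0.32 ± 0.15, with an unadjusted limma p of 0.0454. Of 17 glial reactivity genes 15 were higher (median 0.12, 0.22 without control 3 and 0.27 with the lens level as a covariate). Only S100a6, a calcium-binding protein, did not overlap (0.53 ± 0.35), which is 5.9% of the list, against 3.79% of all genes. Gfap, the intermediate filament of reactive Müller cells and astrocytes, differed by 0.45 ± 0.27, with 7.27, 6.72 and 7.23 in saffron retinas, against 6.91, 6.23 and 6.73 in control retinas. Of the 13 genes chosen by the study for RT-PCR, its reference genes Actb and Gapdh not counted, 8 were higher and 5 lower. None had an unadjusted limma p below 0.05. Fabp5, a fatty acid binding protein, and Hmox1 did not overlap and were higher. With the reference genes counted, these were 13.3% of 15 genes, against 3.79% of all genes. Fabp5 read 8.22, 7.87 and 7.21 in saffron retinas, against 6.89, 6.98 and 7.14 in control retinas (0.76 ± 0.48).

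Clock genes were lower in 13 of 16 (median -0.09, and -0.19 without saffron 3). Dbp, an output factor of the clock, read 10.69, 10.68 and 10.71 in saffron retinas, against 10.94, 10.96 and 11.00 in control retinas (-0.27 ± 0.13). Bhlhe40 and Bhlhe41, repressors of the clock, differed by -0.31 ± 0.14 and -0.35 ± 0.15, with overlap.

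Lists for Müller cells, vessels and the other cells that a retinal dissection could carry had medians from -0.13 to 0.06. Müller cell genes had a median of -0.13 (9 of 11 lower), which was -0.28 without control 3 and -0.082 without saffron 1, with Sox2, a progenitor and glial factor, at 7.56, 7.56 and 7.96 in saffron retinas, against 8.04, 8.06 and 8.08 in control retinas. Endothelial and pericyte genes were lower in 12 of 14 (median -0.10, and -0.040 without saffron 2), among them Pecam1 (-0.41 ± 0.16) and Esam (-0.31 ± 0.13), both junction proteins of vessels. Microglial genes had a median of -0.11 (-0.026 without control 3) and blood cell genes one of 0.06. Pigment epithelium genes had a median of -0.04; Ttr, the thyroxine and retinol carrier, read 6.71, 7.42 and 6.16 in saffron retinas, against 8.17, 6.56 and 8.28 in control retinas, and overlapped. Corneal keratin Krt12 was high in 1 control array (6.48, 6.37 and 6.39 in saffron retinas, against 6.25, 5.78 and 9.29 in control retinas). Without control 3 its difference was 0.40. Control 3 was also the highest array for Krt13 (7.06), Krt14 (5.86) and Aldh3a1 (8.04), whereas Bmp4 and Wfdc1 were highest in saffron 3. The mean of the 17 cornea, ciliary body and muscle genes was 5.86, 5.67 and 5.83 in saffron retinas, against 5.73, 5.62 and 6.22 in control retinas.

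The 3 SafLD and 3 LD arrays give a second pair of saffron-fed and unfed groups, from other retinas but in the same fit, and after bright light. Of the 135 probe sets higher in saffron than in control by both limits, 85 (63%) were higher in SafLD than in LD, where 56.3% of all probe sets with 1 symbol were. Of the 285 lower ones, 170 (59.6%) were lower, where 43.7% of all were. Of the 15 largest higher ones 7 (46.7%) and of the 15 largest lower ones 9 (60%) kept their direction. Beyond the direction, an unadjusted p below 0.05 in the same direction was reached by 17 (12.6%) of the higher ones. It was reached by 21 (7.37%) of the lower ones, and the shares of all were 4.1% and 3.87%. The fit gives a probe set the same SE in both comparisons, 0.207 for Chst3. Selection by p favours a small SE, so these shares are not an independent check. The share in the opposite direction was not examined. Between SafLD and LD, 90 probe sets (0.308%) had an adjusted p below 0.05 by limma. These included Pcdhb5, an adhesion molecule of the protocadherin beta cluster, with a difference of 0.96 (adjusted p = 0.00926), and Dnai3 with -0.76 (adjusted p = 0.0401), both in the direction of saffron against control. Chst3 differed by 0.89 (adjusted p = 0.0936) and Car4 by -0.55 (adjusted p = 0.206), again in the same direction. Egr1, Nr4a1 and Cplx3 differed by 0.07, -0.19 and 0.03.

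**Figure D5:**
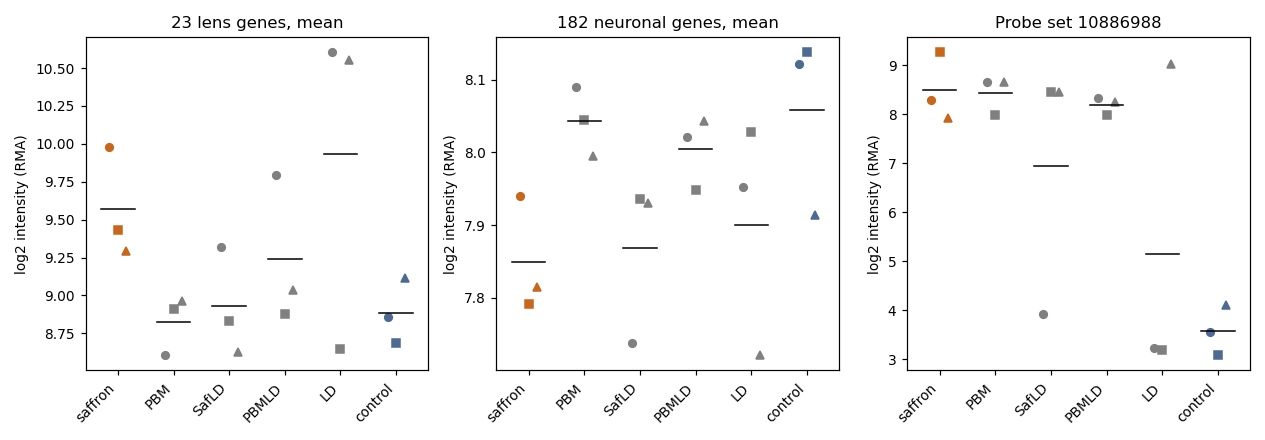
Mean log2 intensity of the 23 lens genes (left), of the 182 neuronal genes (middle) and of probe set 10886988 (right) in all 18 arrays, with group means as bars and symbols for the array number. The lens level is above every control array in all saffron arrays and varies most in LD, and probe set 10886988 is either low or high in each array.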

How the data were processed

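Each animal gave 1 retina and 1 array. The deposited table holds log2 intensities summarised by the authors with RMA over the probes of each probe set, which equalises the distributions of the arrays and can compress differences of dim probe sets. Expression Console (Affymetrix, version 1.1.2800.19935) is credited in the notes the submitters gave on processing. No genome build is named there. The smallest value was 1.37, the largest 14.03, and medians of single arrays lay between 6.12 and 6.19. No further normalization was applied. Of 29214 probe sets 15310 had 1 gene symbol in the platform annotation, 323 several and 13581 none, and 15279 of the symbols matched RefSeq (GRCr8), which also gave the promoter windows. A gene with several probe sets (14506 genes in all) was represented by the brightest.

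A linear model with 6 group means was fitted to all 18 arrays (limma 3.58.1 and statmod 1.5.0 under R 4.3.3), and probe sets were called at an adjusted p below 0.05 (Benjamini-Hochberg over all probe sets) and more than 2-fold. The fit was tested on simulated data. With 3 arrays against 3 an exact permutation test cannot go below 0.1, the value of every gene without overlap. Limma p-values, SEs and intervals rest on the spread between single retinas within groups, pooled over all 6 groups and moderated across probe sets. The spread among retinas exposed to bright light thus enters those of saffron against control. Named genes were the 15 largest differences in each direction with an unadjusted p below 0.05 and no overlap (5 for probe sets without a symbol), the genes of the study's RT-PCR with its reference genes, lens genes differing by over 0.5, and the 3 largest of each of the other lists; others were picked after their values were seen. The 31 lists and the genes compared were chosen with earlier results of these data known, and lists were described by counts and medians without a test. Alternatives were other tests, variance models, array weights, normalizations, filters, the lens level as a covariate, the replicate number as a block and each array left out in turn. Tissue counts and RT-PCR of the study were not analysed here.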

Additional observations from a re-analysis of the deposited data

Results flagged for a closer look

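The log2 difference between saffron and control was set against that between SafLD and LD in the same limma fit. In 41 probe sets (0.140%) the saffron effect without light differed from that with light at an adjusted p below 0.05 and by more than 2-fold. In all 41 the effect was higher without light, and none of the 41 had a gene symbol. All 41 were lower in SafLD than in LD, with differences from -3.02 to -0.58 (median -2.11), and higher in saffron than in control by 0.18 to 0.94 (median 0.45), with the light pair the larger in 40. In PBM retinas, which met no bright light, all 41 also lay below control (-2.24 to -0.285, median -1.44). That distance was larger than the distance of saffron from control in 40. Several had identical values in all 18 arrays, so that the 41 held 29 distinct profiles.

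In S100a6, Bfsp1 and probe set 10875307 the groups did not overlap in either pair, and the direction with light was opposite to that without it. S100a6, a calcium-binding protein of reactive glia, read 5.43, 6.16 and 5.32 in saffron retinas, against 5.21, 5.13 and 4.97 in control retinas, and 5.29, 4.87 and 4.88 in SafLD retinas, against 6.41, 5.36 and 7.48 in LD retinas; the difference between the effects was 1.93 ± 0.50 (SE), with an adjusted p of 0.304. Bfsp1, the lens filament protein, read 5.91, 5.89 and 5.62 in SafLD retinas, against 10.38 in LD 1 and 10.44 in LD 3, while LD 2 lay less than 0.1 above the highest SafLD array; its saffron effects differed by 4.58 ± 1.33 (adjusted p = 0.443). Probe set 10875307, without a symbol, read 2.97, 3.33 and 4.44 in saffron retinas, against 4.77, 5.80 and 5.39 in control retinas, and 4.66, 5.36 and 4.49 in SafLD retinas, against 4.33, 2.99 and 4.38 in LD retinas (-2.68 ± 0.61, adjusted p = 0.149). None of these differences passed the test across all probe sets.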

How the results depend on the processing

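With 3 arrays a group and a median 95% interval of 0.35 to either side, small differences could not be separated from the spread between arrays; the intensities carry no count of molecules. The number of probe sets called between saffron and control was 0 and became 1 with the compared groups alone (probe set 10886988), 1 with the lens level as a covariate (Chst3) and 26 with the unadjusted t-test of the methods; it stayed 0 whichever array was left out. At an unadjusted p below 0.05 the number ranged from 866 (without saffron 2 or without control 1) to 1846 when an array was left out, and was 2399 with array weights. The lens median of 0.65 ranged from 0.52 to 0.82 with an array left out and was 0.072 with the lens covariate, which is built from the same genes. The neuronal median of -0.22 ranged from -0.28 to -0.17 with an array left out. The effects without and with light differed in 102 probe sets with array weights, in 0 when unnamed probe sets were left out and in 37 to 55 with an array left out. Against PBM, 0 probe sets were called when unnamed ones were left out and 37 to 100 with an array left out (60 without saffron 1, 37 without saffron 2, 44 without PBM 2, 46 without PBM 3). The sign turned with array weights for Ccl2 (-0.10) and S100a9 (-0.033), and with the lens covariate for Hspb1 (-0.21), Bfsp1 (-0.19), Lgsn (-0.86), Crygd (-0.48), Fabp5 (-0.057) and Cryga (-0.95). With an array left out it turned for Cryga (-0.030 without saffron 1, up to 1.07), Ccl2 (-0.021 without saffron 2 and -0.0033 without control 2, up to 0.30), Actb (-0.072 to 0.020, without saffron 2), Smarcd1 (-0.26 to 0.028, without saffron 2), Slc24a1 (-0.52 to 0.031, without saffron 2), Fgf2 (-0.21 without saffron 3 and -0.028 without control 3, up to 0.39), Socs3 (-0.012 without control 2, up to 0.23) and Krt12 (-1.36 to 0.40, without control 3). The cause of these changes was not tested. Replicate numbers did not pair the arrays: correlations of same-numbered deviations were 0.21, -0.22 and -0.39. With the replicate block, 0 probe sets were called and 1191 had an unadjusted p below 0.05, while the block gave 40 for the effects without and with light and 84 against PBM.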

Other observations

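The protocadherin beta genes, single-exon adhesion molecules that stand in a row and give neurons surface identities, held 3 neighbours that were higher in saffron than in control. Of 9 measured members 4 were higher in saffron, and the 3 whose groups did not overlap and were higher were the consecutive Pcdhb4, Pcdhb5 and Pcdhb6; Pcdhb4 and the family were picked after the values were seen. Pcdhb5 read 6.84, 7.08 and 7.27 in saffron retinas, against 6.18, 6.41 and 6.23 in control retinas, a log2 difference of 0.79 ± 0.16 (SE). Pcdhb6 read 6.13, 6.28 and 6.13 in saffron retinas, against 5.60, 5.29 and 5.32 in control retinas (0.78 ± 0.21). Pcdhb4 read 6.07, 6.03 and 6.37 in saffron retinas, against 5.66, 5.72 and 5.78 in control retinas (0.44 ± 0.19). Pcdhb5 and Pcdhb6 were also higher in PBM than in the same control arrays, by 0.64 and 0.75, and differed between saffron and PBM by 0.15 and 0.030. Under bright light Pcdhb5 read 7.06, 7.32 and 7.05 in SafLD retinas, against 6.08, 6.45 and 6.02 in LD retinas, and Pcdhb6 5.96, 6.07 and 6.71 in SafLD retinas, against 5.43, 5.42 and 5.51 in LD retinas. Pcdhb3 differed by -0.38 ± 0.17 and Pcdhb8 by -0.08 ± 0.14 between saffron and control, both with overlap. One member, Pcdhb20, was lower without overlap, at 7.22, 7.03 and 7.07 in saffron retinas, against 7.23, 7.46 and 7.34 in control retinas (-0.24 ± 0.13). Over all genes 3.79% were higher and 6.69% lower without overlap. These genes resemble each other in sequence, so their probe sets may share signal.

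Probe set 10886988, which has no symbol in the platform table, had the largest difference of those that met both limits. It read 8.29, 9.26 and 7.93 in saffron retinas, against 3.56, 3.08 and 4.11 in control retinas (4.91 ± 1.22, SE; adjusted p = 0.837, and 0.00947 with the compared groups alone). Over the 18 arrays it was under 5 in 6 and over 7 in 12, with none between. It read 8.65, 7.99 and 8.67 in PBM retinas, 3.93, 8.45 and 8.45 in SafLD retinas, 8.34, 7.99 and 8.26 in PBMLD retinas and 3.24, 3.19 and 9.03 in LD retinas. Probe set 10753017, which the study names RGD1310778, a synonym in RefSeq of the centromere gene Mis18a, had the smallest unadjusted limma p of all (2.2e-05) and read 3.89, 3.43 and 3.37 in saffron retinas, against 5.22, 5.47 and 5.09 in control retinas. Probe set 10701505, without a symbol, differed by -1.59 ± 0.32 between saffron and control, and read 6.74, 6.47 and 6.48 in SafLD retinas, against 8.27, 8.46 and 8.96 in LD retinas (adjusted p = 0.00699).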
